A study of Mus musculus with 8 samples.

Results

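The genes described here are 9 genes of retinoid uptake, metabolism and signalling, out of 39179 genes in the count tables: Stra6, Dhrs3, Aldh1a1, Aldh1a3, Crabp1, Crabp2, Rara, Rarb and Rarg. They were chosen by symbol, and all 9 were found. Stra6 was picked because it was higher with WT-USP21 in these data, so its difference between constructs is given below as a description without a test. RNA was sequenced from PDAC (pancreatic ductal adenocarcinoma) cells grown from iKPC mice in 8 libraries, 2 from each of 4 cell lines. One library of each line came from cells with WT-USP21 overexpression (n = 4) and the other from cells with ED-USP21 overexpression (n = 4). USP21 is a deubiquitinase, an enzyme that removes ubiquitin from proteins, and what ED abbreviates is not spelled out in the labels. Every line, in both groups, carried the alleles ROSA_rtTA and p48-Cre, with a doxycycline-responsive transgene. Cre is driven from the pancreatic p48 (Ptf1a) locus, and rtTA is a doxycycline-responsive activator. The strain background is labelled FVB/C57Bl6 for lines 1 and 2 and C57BL/6 for lines 3 and 4. Cells without a construct were not analysed here, so WT-USP21 could be set only against ED-USP21, and whether cultures received doxycycline is not stated in the labels.

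Retinol circulates bound to the carrier RBP4 and enters cells through STRA6, a membrane receptor for that carrier. Inside the cell RDH10 oxidises retinol to retinal, DHRS3 reduces retinal back to retinol, and ALDH1A enzymes oxidise retinal to retinoic acid, which CYP26 enzymes break down. CRABP1 and CRABP2 are cytoplasmic carriers of retinoic acid, and the receptors RARA, RARB and RARG bind DNA as partners of retinoid X receptors. Retinoic acid guides pancreas development, and Stra6, Rarb, Dhrs3 and Cyp26a1 are known retinoic acid induced genes.

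Promoter letters are shown for Stra6 and Aldh1a1, which among the tested members differed most between constructs and between lines respectively, and for 2 genes whose promoters hold a retinoic acid response element, Rarb and Cyp26a1. The sequences are RefSeq windows of the mouse build GRCm38.p6, which is later than the mm9 of the counts. Each window covers the 250 bases before an annotated start, and 7 of the 9 genes had an entry, with 17 windows in all. Crabp2 and Aldh1a3 had none. The first Stra6 start lies on chromosome 9, plus strand, and the bases before it are chr9:58128838-58129087. The Stra6 stretch before the next start is chr9:58129151-58129348, also on the plus strand, and covers the last 198 bases of its window. By GENCODE it lies in an intron of the transcript that begins at the first start. The Aldh1a1 stretch is chr19:20492333-20492582 on the plus strand. Capitals in Stra6 and Aldh1a1 mark the heptamer CTTTGAT or CTTTGAA on either strand, a short form of the sequence that TCF/LEF factors of the Wnt pathway bind.
Stra6, before the first start: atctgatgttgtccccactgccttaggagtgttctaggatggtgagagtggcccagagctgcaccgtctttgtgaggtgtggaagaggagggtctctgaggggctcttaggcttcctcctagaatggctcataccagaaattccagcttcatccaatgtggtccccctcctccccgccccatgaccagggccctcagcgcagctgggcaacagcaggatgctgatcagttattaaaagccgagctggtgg
Stra6, before the next start: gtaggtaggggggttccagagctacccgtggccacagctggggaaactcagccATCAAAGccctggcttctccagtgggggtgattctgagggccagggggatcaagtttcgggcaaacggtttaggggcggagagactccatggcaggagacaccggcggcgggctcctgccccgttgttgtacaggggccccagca
Aldh1a1, before the first start: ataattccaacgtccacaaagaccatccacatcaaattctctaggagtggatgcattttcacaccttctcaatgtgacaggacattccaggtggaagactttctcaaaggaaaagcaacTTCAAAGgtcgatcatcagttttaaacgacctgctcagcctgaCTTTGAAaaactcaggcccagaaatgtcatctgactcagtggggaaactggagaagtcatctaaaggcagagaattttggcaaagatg
In Rarb and Cyp26a1 the capitals mark a DR5, a direct repeat of 2 hexamers with 5 bases between them, the spacing best known for retinoic acid receptors. The Rarb stretch is chr14:16575507-16575535 on the minus strand, inside annotated first exons by GENCODE, and the Cyp26a1 stretch is chr19:37697558-37697797 on the plus strand. The printed Cyp26a1 letters run from base 250 to base 11 before the start, so they stop short of it.
Rarb, around the DR5: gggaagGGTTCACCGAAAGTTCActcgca
Cyp26a1, before the start: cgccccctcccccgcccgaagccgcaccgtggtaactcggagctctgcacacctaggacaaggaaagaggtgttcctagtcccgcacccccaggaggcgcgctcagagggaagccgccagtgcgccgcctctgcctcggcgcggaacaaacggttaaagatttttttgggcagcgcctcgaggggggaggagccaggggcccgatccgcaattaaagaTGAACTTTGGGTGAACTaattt

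The hexamers searched were AGGTCA and GGGTCA and likewise AGTTCA and GGTTCA, on both strands, with 5 bases (DR5), 2 bases (DR2) or 1 base (DR1) between them. Among the 17 windows of the 9 genes, the Rarb window was the 1 with a DR5, and no window held a DR2 or DR1. The Rarb repeat runs from base 53 to base 37 before the start, and that of Cyp26a1 from base 32 to base 16 on the opposite strand. A DR5 of these letters was present in 0.0883% of all 32851 windows, a DR2 in 0.174% and a DR1 in 0.164%. The TCF heptamer was in 4 of the 17 windows, against 7.48% of all windows. These were 1 of Stra6, 1 of Aldh1a1 and 2 overlapping windows of Dhrs3, which hold the same site. By gene, the heptamer was in Stra6, Aldh1a1 and Dhrs3 of the 7 with an entry, against 8.63% of all genes. In Stra6 it spans bases 145 to 139 before the next start, and in Aldh1a1 bases 131 to 125 and 88 to 82. These matches describe letters in these windows and were not tested as binding sites.

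Each library held 72828184 to 107551210 gene counts. Levels are in CPM, gene counts scaled to a common library total after TMM adjustment. Usp21 itself was higher with ED-USP21 in all 4 lines, at 2293 ± 750 CPM (SD, n = 4) against 643 ± 381 with WT-USP21. The libraries at both extremes were in WT-USP21 line 1, at 147 CPM, and ED-USP21 line 2, at 3132 CPM, and the groups did not overlap. The mean log2 difference was -2.10 (SD 0.94 over 4 lines; exact 2-sided permutation test, p = 0.0286, the smallest that 70 arrangements allow). That test shuffles the libraries without regard to line. An exact 2-sided test within the 4 pairs, added after the data were seen, gave p = 0.125, the smallest that 4 pairs allow, and the fits with the line in the model gave adjusted p = 0.205 by edgeR and 0.115 by DESeq2. Line 1 stood apart from the other lines: 1798 to 2136 of 12320 genes with a mean of at least 1 CPM were 2-fold or more apart between line 1 and another line of the same group, against 116 to 379 between other lines. Ductal markers (7 of 7 detected, summed 7670 to 13311 CPM with WT-USP21 and 8124 to 11179 with ED-USP21) were present, as the labelled cell type has them, except that Epcam, named after its values were seen, had a mean of 0.172 CPM in lines 2 to 4. The acinar genes Ptf1a, Pnlip and Amy2a5 and the hormones Ins1, Ins2, Gcg and Sst were at 0 reads in every library. The acinar list of 6 still summed to 2.21 to 9.34 CPM with WT-USP21 and 2.71 to 11.3 CPM with ED-USP21, nearly all of it Cela1, at 2.08 to 11.2 CPM over the libraries, and Chga of the islet list reached at most 0.0675 CPM. Summed over 8 markers, fibroblast and stellate cell genes reached 6.95 to 18.2 CPM with WT-USP21 and 4.90 to 8.53 CPM with ED-USP21, with Dcn and Lum at 0. The 18.2 CPM was in line 4, where Col1a2 had 459 reads against 0 with ED-USP21 and Col3a1 273 against 1. Pdgfra was at 3.35 to 5.82 CPM over the libraries. Summed endothelial markers were 0.420 to 2.39 CPM with WT-USP21 and 0.446 to 0.645 CPM with ED-USP21, and leukocyte markers 6.02 to 12.9 and 5.04 to 15.8 CPM. Nearly all of the leukocyte sum was Cd68, at 4.86 to 15.5 CPM over the libraries. Ptprc reached at most 0.279 CPM, and Emr1 was at 0. In bulk RNA, fewer cells of a type and less RNA per cell cannot be told apart, and the part of other cells in the results was not tested.

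Stra6 (ENSMUSG00000032327), the retinol uptake receptor, was 4.0-fold to 7.61-fold higher with WT-USP21 than with ED-USP21 in the 4 lines. Stra6 was at 12.8, 39.6, 38.7 and 40.4 CPM with WT-USP21 in lines 1 to 4. With ED-USP21 the Stra6 levels were 3.19, 7.87, 5.06 and 5.52 CPM in the same order of lines. The lowest WT-USP21 library, that of line 1, was above the highest ED-USP21 library, that of line 2, so the groups did not overlap. Such separation in the WT-USP21 direction occurred in 1.07% of the 16192 genes tested. From line 1 to line 4 the ratio of the constructs was 4.0, 5.02, 7.61 and 7.29. The group means were 32.9 ± 13.4 CPM with WT-USP21 and 5.41 ± 1.93 CPM with ED-USP21 (SD, n = 4). With the line in the model, the fitted Stra6 difference was 2.54 on the log2 scale (SE 0.18, 95% interval 2.11 to 2.97), and 24 of the 16192 genes had a larger one. Without line 1 it was 2.71. Stra6 was picked on this difference, so the SE and the interval do not allow for that choice and are no test. Stra6 rested on 331 to 3994 reads per library.

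The level of Stra6 within a construct also depended on the line. Its means over the 2 libraries of a line were, from line 1 to line 4, 8.0, 23.8, 21.9 and 23.0 CPM. Lines 2, 3 and 4 thus lay close together. By mean log2 CPM line 1 was 2.41-fold lower than these lines, which is not the ratio of the CPM means above. The levels differed among the lines (edgeR quasi-likelihood F test over the 3 line terms, adjusted p = 0.0278). That test does not use the construct difference. It shares the residual variance of the contrast on which Stra6 was picked, so it is not wholly free of that choice. Without line 1 the adjusted p was 0.504, and without line 2 it was 0.0687.

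**Figure D1:**
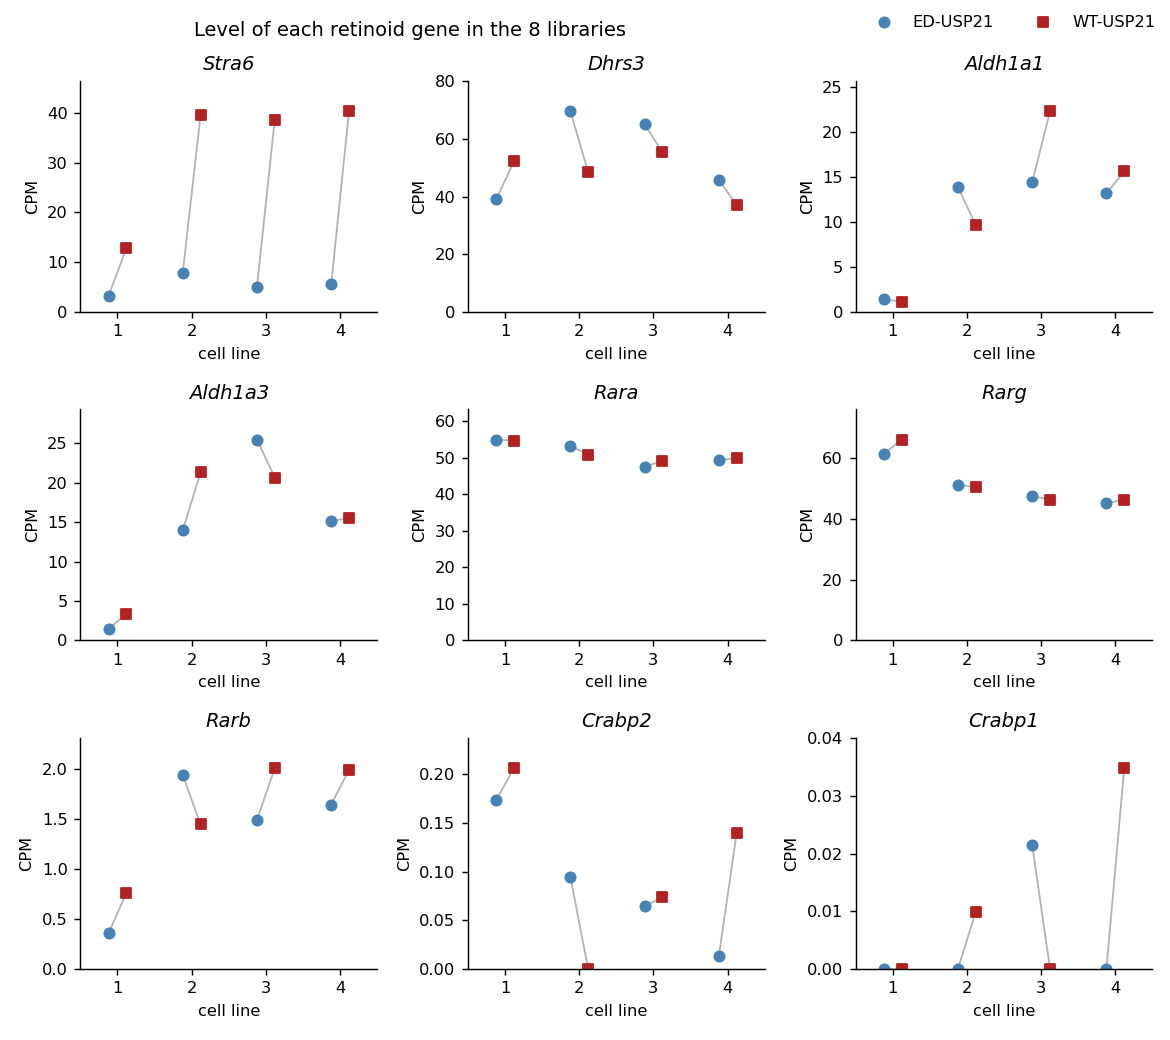
Level of each of the 9 retinoid genes in CPM (vertical axis, linear from 0, with its own scale per panel) in cell lines 1 to 4, for ED-USP21 (circles) and WT-USP21 (squares). Grey lines join the 2 libraries of a line. Stra6 was higher with WT-USP21 in all 4 lines, while for the other genes the order of the constructs changed from line to line.

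Of the 8 genes other than Stra6, 6 passed the filter on low counts, and none was called between constructs within lines (edgeR quasi-likelihood test, adjusted p under 0.05, and 0 of 6 at an unadjusted p under 0.05). DESeq2 also called 0 of these 6. In the same comparison 0.0247% of all genes tested were called, 4 genes, with Stra6, Prickle1 and Dclk1 among them, the last of these named after its values were seen. Stra6 was picked on this contrast, so its place there is no test. The median fitted difference of the 6 genes was 0.02 on the log2 scale, and that of all genes tested was -0.00. None of the 6 was higher, or lower, in all 4 lines, against 9.02% and 7.73% of all genes tested. None had its groups apart either, against 1.07% of all genes in the WT-USP21 direction and 0.71% in the other. When the cell line was left out of the model no gene of the 16192 was called by edgeR (0%), with 392 at an unadjusted p under 0.05, while DESeq2 called 60 and limma 3.

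Dhrs3 (ENSMUSG00000066026), which reduces retinal to retinol, was at 52.2, 48.5, 55.3 and 37.1 CPM with WT-USP21 in lines 1 to 4. With ED-USP21 it was at 39.0, 69.6, 65.2 and 45.8 CPM. The groups overlapped: Dhrs3 was higher with WT-USP21 in line 1 and lower in the other 3 lines. The log2 differences were 0.42, -0.52, -0.24 and -0.30, and the fitted one was -0.16 (SE 0.15, 95% interval -0.53 to 0.21; edgeR, adjusted p = 0.858). Leaving out line 1 gave -0.35 (SE 0.07; edgeR, adjusted p = 0.0577), which also missed the threshold. Per length, Dhrs3 was the most abundant of the 9 genes, at 17.6 RPKM (CPM per kilobase of exon, mean of all 8 libraries).

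Among the other 13 genes that interconvert retinol and retinal, 9 were tested and none was called within lines, with 1 higher and 1 lower at an unadjusted p under 0.05 (875 and 466 of all 16192 genes). Rdh10, which catalyses the step opposite to DHRS3, was more abundant than Dhrs3, at 130.6 RPKM. Its CPM was 1076, 501, 521 and 552 with WT-USP21 in lines 1 to 4 and 593, 395, 364 and 345 with ED-USP21. The WT-USP21 library was thus the higher one in each of the 4 lines, although the ED-USP21 library of line 1 was above the WT-USP21 libraries of the other 3 lines. The fitted Rdh10 difference was 0.60 on the log2 scale (SE 0.09; edgeR, adjusted p = 0.176). Rdh10 was called by 2 alternatives, DESeq2 (adjusted p = 6.14e-06, with 1.95% of all genes called higher) and edgeR without line 1, at 0.52 (adjusted p = 0.0209, with 2.51% of all genes called higher). Dhrs9, a retinol dehydrogenase, was at 29.5, 10.6, 11.4 and 10.6 CPM with WT-USP21 and 25.6, 16.1, 19.0 and 16.7 CPM with ED-USP21, so line 1 went one way and lines 2 to 4 the other. Its fitted log2 difference was -0.45 (SE 0.17; edgeR, adjusted p = 0.560), and -0.66 without line 1 (edgeR, adjusted p = 0.0107). Adh7, an alcohol dehydrogenase that accepts retinol, gave -0.28 (SE 0.21), and Rdh14, another retinol dehydrogenase, gave 0.12 (SE 0.13); neither passed.

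Aldh1a1 (ENSMUSG00000053279), a retinal dehydrogenase, was at 1.10, 9.67, 22.3 and 15.6 CPM with WT-USP21 in lines 1 to 4. With ED-USP21 the Aldh1a1 levels were 1.41, 13.8, 14.4 and 13.2 CPM. The constructs overlapped, with WT-USP21 lower in lines 1 and 2 and higher in lines 3 and 4. The fitted Aldh1a1 difference was 0.02 on the log2 scale (SE 0.21, 95% interval -0.49 to 0.53; edgeR, adjusted p = 0.993). Aldh1a3 (ENSMUSG00000015134), which catalyses the same step, was at 3.39, 21.3, 20.7 and 15.5 CPM with WT-USP21. With ED-USP21 it was at 1.41, 13.9, 25.5 and 15.2 CPM. Aldh1a3 was higher with WT-USP21 in lines 1 and 2, lower in line 3 and nearly level in line 4, and the groups overlapped. Its fitted log2 difference was 0.37 (SE 0.25, 95% interval -0.24 to 0.99; edgeR, adjusted p = 0.779).

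Both retinal dehydrogenases were low in line 1. By mean log2 CPM, lines 2 to 4 had 11.4-fold more Aldh1a1 and 8.27-fold more Aldh1a3 than line 1. The 4 lines differed for Aldh1a1 (edgeR F test, adjusted p = 0.00342) and for Aldh1a3 (adjusted p = 0.00928). Neither difference remained when line 1 was left out, with edgeR adjusted p = 0.418 for Aldh1a1 and 0.311 for Aldh1a3. Aldh1a7, a close copy of Aldh1a1 whose reads may be split with it, followed the same lines, at 0.702 CPM in line 1 and 5.51, 11.04 and 7.33 in lines 2, 3 and 4 (edgeR F test, adjusted p = 0.00445). Between constructs Aldh1a7 gave -0.37 on the log2 scale (SE 0.22; edgeR, adjusted p = 0.750), and -0.61 without line 1 (edgeR, adjusted p = 0.0255). Without line 1, 2.06% of all genes were called lower. Aldh1a2, the third retinal dehydrogenase, was named after its values were seen: the WT-USP21 libraries held 0, 8, 6 and 9 reads and every ED-USP21 library 0. Those 23 reads all came from lines 2 to 4, and Aldh1a2 was too low to enter the test.

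**Figure D2:**
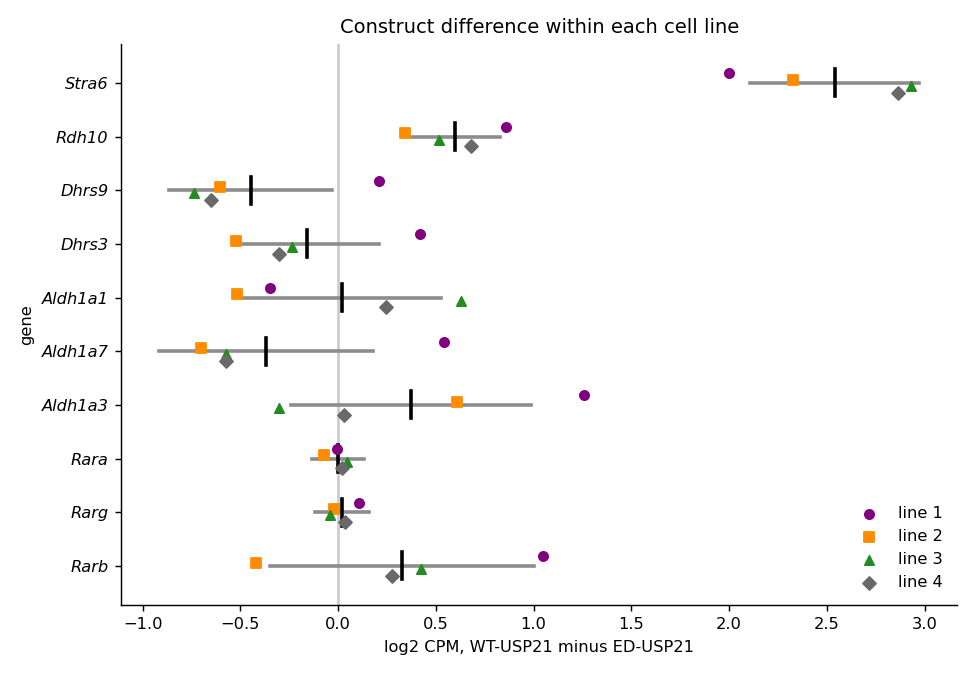
Difference in log2 CPM between WT-USP21 and ED-USP21 (horizontal axis) in each of lines 1 to 4 (symbols) for the 7 tested retinoid genes and for Rdh10, Dhrs9 and Aldh1a7. Black bars mark the fitted difference and grey lines its 95% interval, which for Stra6 does not allow for its being picked on this difference. Stra6 lies between 2.0 and 2.93 in every line, Rdh10 is above 0 in every line, and for Dhrs3, Dhrs9 and Aldh1a7 line 1 is on the other side of 0 from lines 2 to 4.

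The retinoic acid carriers were near the detection limit. Crabp1 (ENSMUSG00000032291), which holds retinoic acid in the cytoplasm, had 0, 1, 0 and 3 reads in the WT-USP21 libraries of lines 1 to 4 and 0, 0, 2 and 0 in those with ED-USP21. A library's limit of 3 counts corresponded to 0.0289 to 0.0405 CPM, so no ratio is given for Crabp1. Crabp2 (ENSMUSG00000004885), which delivers retinoic acid to its receptors, had 19, 0, 7 and 12 reads in the WT-USP21 libraries and 18, 7, 6 and 1 in those with ED-USP21. Its highest counts were those of line 1, with both constructs, and the groups overlapped. Summed over lines, the depth-adjusted Crabp2 ratio was 1.11 (exact 95% interval 0.673 to 1.83, covering counting error only). Neither gene passed the filter for the test.

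The receptors Rara and Rarg varied least of the 9 genes between constructs, with an SD of the 4 log2 differences of 0.05 and 0.07. Rara (ENSMUSG00000037992) was at 54.7, 50.8, 49.2 and 49.97 CPM with WT-USP21 in lines 1 to 4 and at 55.0, 53.4, 47.6 and 49.3 CPM with ED-USP21. The 2 libraries of a line were nearly level, and the fitted log2 difference was -0.00 (SE 0.05, 95% interval -0.14 to 0.13; edgeR, adjusted p = 0.997). Rarg (ENSMUSG00000001288) was at 66.0, 50.5, 46.2 and 46.3 CPM with WT-USP21 and at 61.3, 51.2, 47.5 and 45.1 CPM with ED-USP21. Here too the groups overlapped, with a fitted log2 difference of 0.02 (SE 0.06, 95% interval -0.12 to 0.16; edgeR, adjusted p = 0.961). These intervals exclude a construct difference of 2-fold in either direction for both receptors. Rarg was 1.33-fold higher in line 1 than in the mean of the other lines, and the lines differed (edgeR F test, adjusted p = 0.0210). Leaving out line 1 gave 0.453 and leaving out line 4 gave 0.0592. For Rara the same F test gave an adjusted p of 0.308.

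Rarb (ENSMUSG00000017491), the receptor with the DR5 printed above, was the least abundant of the 3 receptors, at 0.277 RPKM against 11.7 for Rara and 12.1 for Rarg. Its levels were 0.761, 1.45, 2.01 and 1.997 CPM with WT-USP21 in lines 1 to 4. With ED-USP21 they were 0.356, 1.94, 1.49 and 1.65 CPM. Rarb was higher with WT-USP21 in lines 1, 3 and 4 and lower in line 2, and the groups overlapped. The fitted log2 difference was 0.33 (SE 0.28, 95% interval -0.35 to 1.003; edgeR, adjusted p = 0.836), so the interval reaches a doubling with WT-USP21 and the data do not exclude one. By mean log2 CPM, lines 2 to 4 had 3.24-fold more Rarb than line 1. The adjusted p over the lines was 0.0614 by edgeR, 0.00251 by DESeq2 and 0.0385 by limma. On 37 to 192 reads per library, Rarb was measured less precisely than Rara or Rarg.

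Per exon length (GENCODE annotation of GRCm38), the mean levels over all 8 libraries ran from Dhrs3 at 17.6 RPKM through Rarg at 12.1 and Rara at 11.7 to Stra6 at 3.29, Aldh1a3 at 3.16 and Aldh1a1 at 2.32. Rarb at 0.277, Crabp2 at 0.0723 and Crabp1 at 0.0103 RPKM were the 3 lowest. Rarg and Rara overlapped in range, 10.6 to 15.5 against 10.9 to 12.6 RPKM. Stra6 took its place only as an average of 5.64 RPKM with WT-USP21 and 0.928 RPKM with ED-USP21. With WT-USP21 its mean was above those of both retinal dehydrogenases, and with ED-USP21 it was below both. The ranges of Stra6, Aldh1a1 and Aldh1a3 over the libraries overlapped.

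In all, 4 of the 7 tested genes differed among the lines, namely Stra6 (with the limit given above), Aldh1a1, Aldh1a3 and Rarg, against 24.8% of all genes tested. Without line 1 none of the 7 did, against 0.398% of all genes. Across the 8 libraries the log2 CPM of Aldh1a1 correlated with that of Aldh1a3 (Pearson r = 0.92) and of Rarb (r = 0.91). With Rarg (r = -0.96) and Rara (r = -0.81) the correlation was inverse. Over the 6 libraries of lines 2 to 4 the r was 0.02 with Aldh1a3, 0.73 with Rarb, -0.53 with Rarg and -0.29 with Rara. These values are descriptions, since the libraries share lines and the 2 of line 1 are far from the rest.

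**Figure D3:**
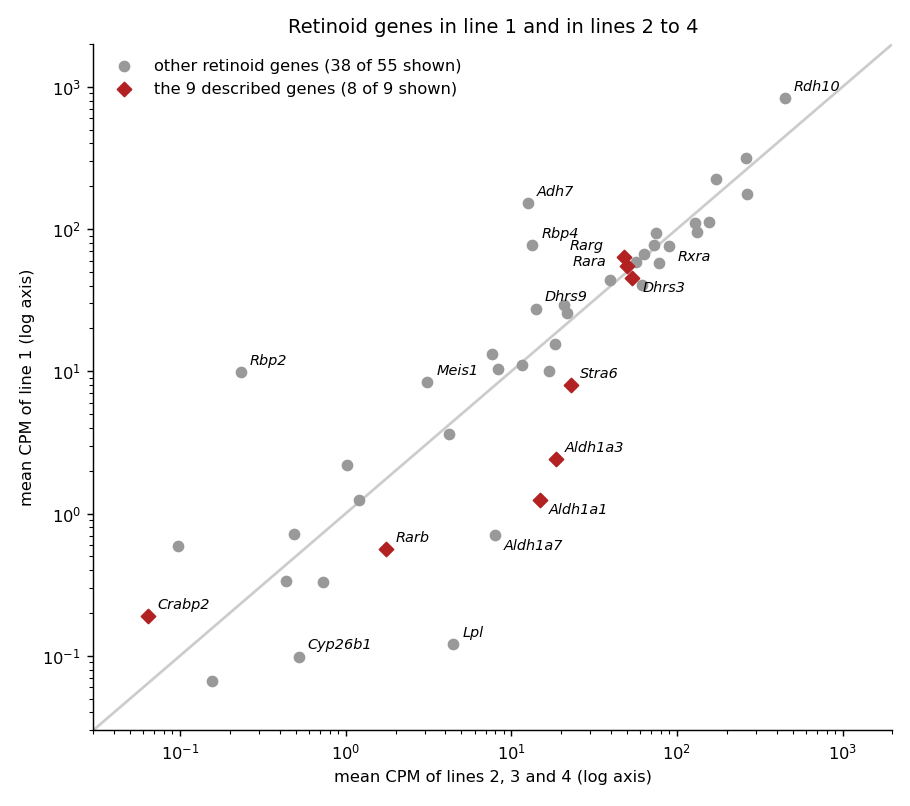
Mean CPM of line 1 (vertical, log axis) against mean CPM of lines 2, 3 and 4 (horizontal, log axis) for 8 of the 9 described genes (diamonds) and 38 of the 55 other retinoid genes (circles), drawn from those that exceeded the limit of 3 counts on both axes. The grey line marks equal levels. Aldh1a1, Aldh1a3, Rarb and Stra6 lie below it, and Rara, Rarg and Dhrs3 lie near it. By mean log2 CPM, not the plotted means, those below were 11.4-fold, 8.27-fold, 3.24-fold and 2.41-fold less in line 1, in that order.

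The construct difference was also compared between background labels, with 2 lines each. The Stra6 difference was 0.73 larger on the log2 scale in the C57BL/6 lines than in the FVB/C57Bl6 lines (SE 0.18), given without a test. No gene of the 16192 was called in this comparison by edgeR (0%), with 375 at an unadjusted p under 0.05, while DESeq2 called 7. Aldh1a1 gave 0.88 (SE 0.23; edgeR, unadjusted p = 0.0108, adjusted p = 0.990) and Aldh1a3 gave -1.05 (SE 0.28; edgeR, unadjusted p = 0.0127, adjusted p = 0.990), in opposite directions. The other 4 tested genes had no unadjusted p under 0.05. Lines 1 and 2 share a label but were far apart in Aldh1a1 and Aldh1a3 levels. Lines 2 and 4 carry different labels but were the closest pair of lines over all genes, with 119 genes 2-fold or more apart with WT-USP21 and 116 with ED-USP21. For lines 3 and 4, which share a label, these counts were 379 and 246.

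The wider pathway was described from 55 other retinoid genes, of which 39 were tested. None was called within lines by edgeR, with 2 higher and 4 lower at an unadjusted p under 0.05, against 875 higher and 466 lower of all 16192 genes. Their median log2 difference was -0.03. In all 4 lines 2 of the 39 were higher with WT-USP21 and 2 were lower (5.13% each). Over all genes tested these shares were 9.02% and 7.73%. DESeq2 called 1 higher, Rdh10. Without line 1, 38 were tested, with 1 higher, Rdh10, and 2 lower, Dhrs9 and Aldh1a7, against 4.57% of all genes called in that comparison.

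Retinol transport, binding and storage had 11 genes listed and 7 tested, none called. Rbp4, the ligand that STRA6 takes retinol from, was at 69.4, 11.8, 12.8 and 16.0 CPM with WT-USP21 and 84.8, 14.4, 13.1 and 12.4 CPM with ED-USP21. It was thus 5.74-fold higher in line 1 than in the others, the line with the least Stra6 (edgeR F test over lines, adjusted p = 0.000852), and differed little between constructs (fitted log2 difference -0.06, SE 0.12). Lpl, a lipase that also hydrolyses retinyl esters, gave -0.39 (SE 0.34), and Dgat1, which can esterify retinol, gave -0.05 (SE 0.07). Lrat, the main retinol esterifying enzyme, had 0 reads in every library and was named after this was seen. Ttr, which carries RBP4 in the blood, was also named after its values were seen and was too low to test. The WT-USP21 libraries held 4, 5, 6 and 5 Ttr reads in lines 1 to 4, and the ED-USP21 libraries 0, 0, 1 and 1, so the groups did not overlap. The depth-adjusted Ttr ratio was 9.32 (exact 95% interval 2.26 to 82.2, counting error only). With 1 line left out it was lowest without line 1, at 6.94 (1.63 to 62.2), and highest without line 4, at 14.1 (2.17 to 594). None of these intervals allows for Ttr being named after its values were seen, so they are no test. How often the groups lie apart among genes too low to test was not computed.

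Retinoic acid breakdown had 2 of 3 genes tested. Cyp26b1 was lower with WT-USP21 in each of the 4 lines, at 0.0435, 0.566, 0.409 and 0.116 CPM against 0.154, 0.702, 0.666 and 0.656. The groups overlapped and the fitted log2 difference was -1.21 (SE 0.45; edgeR, adjusted p = 0.552) on 4 to 62 reads per library. Cyp26c1 gave -0.01 (SE 0.47). Cyp26a1, the retinoic acid induced enzyme with the DR5 printed above, was named after its values were seen with a total of 6 reads over the WT-USP21 libraries and 7 over the others.

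Among retinoid X receptors, cofactors and the other carrier, 10 of 11 genes were tested and none was called. Rxra, the main partner of the retinoic acid receptors, was at 70.7, 87.2, 86.5 and 77.3 CPM with WT-USP21 and 80.8, 95.1, 96.5 and 92.6 CPM with ED-USP21. It was lower with WT-USP21 in all 4 lines, by a fitted log2 difference of -0.18 (SE 0.05; edgeR, adjusted p = 0.426). The coactivator Ncoa1 was higher with WT-USP21 in all 4 lines, at 0.21 (SE 0.06; edgeR, adjusted p = 0.452). The corepressor Nrip1 gave 0.19 (SE 0.08) and the coactivator Ncoa3 gave -0.16 (SE 0.13), and neither passed.

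Of 14 genes known to be induced by retinoic acid, 10 were tested, 0 were called by edgeR or DESeq2, and 0 had an unadjusted p under 0.05 in edgeR. Their median log2 difference was -0.02. The receptor tyrosine kinase Ret gave 0.51 (SE 0.48), Rai14 gave 0.07 (SE 0.07), Rarres1 gave -0.34 (SE 0.61) and the homeobox gene Hoxb4 gave -0.27 (SE 0.51). Without line 1 Ret gave 0.02 and Hoxb4 gave 0.29, and Rarres1 was too low to test.

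**Figure D4:**
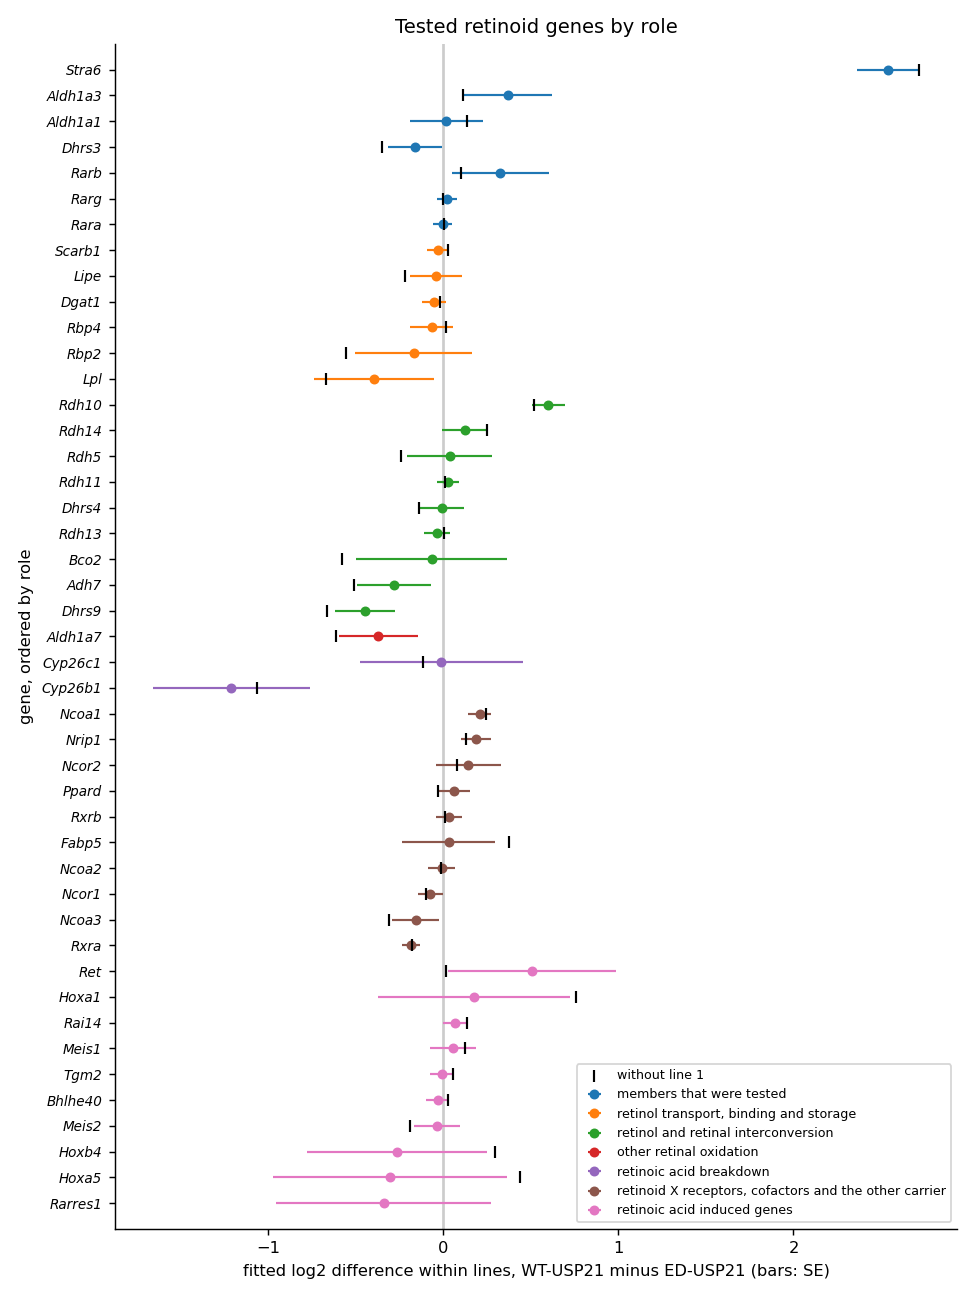
Fitted log2 difference between WT-USP21 and ED-USP21 within lines (circles, horizontal axis, bars show the SE) for the 7 tested members and 38 of the 39 other tested retinoid genes, ordered by role. A black tick marks the value without line 1, except for Rarres1, which was too low to test there. Stra6 stands at 2.54, beyond every other gene plotted, and Cyp26b1 is lowest at -1.21.

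The 5 genes whose log2 CPM followed Stra6 most closely over the 8 libraries, among 12319 compared, were Rnf43 (Pearson r = 0.991), Prickle1 (0.977), Eva1b (0.971), Islr2 (0.967) and Tsga10 (0.967). Over lines 2 to 4 alone their r with Stra6 lay between 0.96 and 0.99. Their fitted construct differences were 0.68 for Rnf43, 1.71 for Prickle1, 0.31 for Eva1b, 2.01 for Islr2 and 0.49 for Tsga10 on the log2 scale. All were smaller than that of Stra6. The genes closest to Dhrs3 were Cd38 (0.922), Agtrap (0.916), Gp1ba (0.898), Myo6 (0.892) and Gabarapl1 (0.881), with fitted differences of -0.27 to -0.05. These are descriptions over 8 libraries that share 4 lines and 2 constructs. Each gene was picked for its r over all 8, so the r over lines 2 to 4 is no separate support. Stra6 itself was picked on its construct difference.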

How the data were processed

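RNA sequencing of 8 libraries gave the deposited values, raw gene-level read counts from the authors, 1 table per library. The submitters' processing notes name HTSeq, STAR, TopHat, Cufflinks, CASAVA and build mm9, with no versions or roles. Strand settings are not stated, so antisense and overlapping genes are uncertain. The row for reads in no gene (11.4% to 20.6%) was left out. Libraries were grouped by construct and cell line as labelled. The 9 genes and the gene lists were chosen with earlier results of these data known.

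Counts were tested with edgeR 4.0.16 (quasi-likelihood, TMM, filterByExpr) in R 4.3.3 with Benjamini-Hochberg adjustment over 16192 genes and a threshold of 0.05: construct with and without the line, line terms, and construct by background label. SE is the log2 difference over the root of F. Log2 CPM of single libraries used a prior count of 2. Folds between line 1 and lines 2 to 4 were taken from means of these log2 values. RPKM used GENCODE M21 exon lengths (GRCm38, not the build of the counts). Alternatives were DESeq2 1.42.0, limma 3.58.1, DESeq2 size factors, other filters and each line left out. The numbers pair the libraries because both of a number come from 1 cell line. Deviations from the group means correlated at 0.826, 0.697, 0.716 and 0.496 within lines 1 to 4, and at up to 0.608 across lines 2 to 4. The WT-USP21 library of line 4 correlated more with the ED-USP21 library of line 2 (0.524) than with that of its own line, so the pairing of line 4 rests on the labels. With the line in the model 4 genes were called, and without it 0. Each line counts as 1 replicate. Nothing in the labels says that libraries came from repeated cultures. Counts between lines of a group differed by more than sampling noise.

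Besides the 9 genes and Usp21, up to 4 tested genes with the smallest p per list, 5 genes most like Stra6 and 5 most like Dhrs3 are named, and others are said to be chosen after their values were seen. Some genes and alleles that the rule or labels give are not reported here.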

Additional observations from a re-analysis of the deposited data

Results flagged for a closer look

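In 11 of 54 groups of 4 libraries of the named genes, 1 library lay far from the other 3, where chance gives about 2.7 for independent groups. The groups are not independent, since both groups of a gene share the same lines. In 10 of the 11 it was a library of line 1, which stood apart over all genes as well. The share of all genes with such a library was not computed, so whether the count is particular to retinoid genes is not known. Stra6 in the WT-USP21 library of line 1 was at 12.8 CPM against 38.7 to 40.4 CPM in the other lines. Aldh1a1 in the ED-USP21 library of line 1 was at 1.41 CPM against 13.2 to 14.4 CPM. Cyp26b1 in the same library was at 0.154 CPM against 0.656 to 0.702 CPM. With WT-USP21, line 1 was above the others for Rbp4 at 69.4 CPM (others 11.8 to 16.0), Rdh10 at 1076 CPM (501 to 552), Dhrs9 at 29.5 CPM (10.6 to 11.4), Adh7 at 172.6 CPM (9.18 to 11.8) and Rarres1 at 0.858 CPM (0.0198 to 0.0839). With ED-USP21, line 1 was above the others for Rbp4 at 84.8 CPM (12.4 to 14.4) and Adh7 at 132.6 CPM (11.5 to 18.5). The exception was Nrip1 in the WT-USP21 library of line 3, at 153.5 CPM against 122.5 to 126.7 CPM.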

How the results depend on the processing

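The counts of genes called depended on tool, filter and line 1, and the cause was not tested. Within lines 4 genes were called, 58 with no low-count filter, 0 with a mean of at least 5 CPM, 406 by DESeq2, 0 with no replicate block and 0 to 746 when 1 line was left out (746 without line 1, and 0 without any other). Across libraries 0 were called, 60 by DESeq2, 3 by limma, 4 with the replicate block and 0 to 383 with 1 line left out (383 without line 1). Among lines 4019 were called, 6534 by DESeq2 and 65 to 3261 with 1 line left out (65 without line 1, 2483 without line 2). By background label 0 were called, and 7 by DESeq2. The Usp21 difference was -2.28 to -1.63 with 1 line left out, where the exact permutation test cannot go below p = 0.100 over libraries or 0.25 within lines. Tested within lines as a replicate block, added after the data were seen, the value of -2.10 had an exact p of 0.125. Among small differences that changed sign within lines, Rara was 3.06e-06 with no filter, 0.0025 at 5 CPM and -0.0193 to 0.0198 with 1 line left out. Leaving out 1 line gave -0.20 to 0.20 for Aldh1a1, -0.0032 to 0.0416 for Rarg, -0.21 to 0.0183 for Rbp4, -0.29 to 0.28 for Cyp26c1, -0.17 to 0.0107 for Rarres1 and -0.71 to 0.29 for Hoxb4. Rarres1 was too low to test without line 1, so its range covers only fits that keep line 1. Its log2 difference was 1.33 in line 1 and -0.86, -0.87 and -1.14 in lines 2, 3 and 4. With no replicate block Adh7 was 0.20 and Rarres1 0.47, and Cyp26c1 was 0.0050 by DESeq2 and 0.0022 by limma. By background label, leaving out 1 line gave -0.69 to 0.26 for Dhrs3, -0.74 to 0.78 for Rarb and -0.11 to 0.0227 for Rarg. Apart from these, the tested named genes kept their direction under the alternatives run. At these depths Crabp1, Crabp2, Aldh1a2, Ttr and Cyp26a1 had too few reads to test.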
